A study of Xenopus tropicalis with 5 samples.

Results

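Sites of 5-methylcytosine (m5C) were examined here in the transcripts of genes that run mitosis, the kinetochore and the cell cycle in Xenopus tropicalis embryos. Genes were taken by symbol, from the name families of cyclins, cyclin-dependent kinases (CDKs), cdc genes, subunits of the anaphase-promoting complex (anapc), polo-like, aurora and nek kinases, bub and mad checkpoint genes, centromere proteins (cenp), the ndc80 group, birc5, wee and pkmyt kinases, the smc and ncap subunits of cohesin and condensin, separase (espl1) and stag. The symbols ccna1, plk1, cenpt, cdc6, cdc7 and cdc45 were left out. The rule reads symbols only and no measured value, but it was set with earlier results of these data known. The rule found 98 of the 6783 genes with a site in any list, with 299 of 23009 sites. Of these, 92 genes and 254 sites were in the 100 ng list of 6394 genes and 18524 sites. The 5 ng list held 190 sites in 72 of the genes, the 10 ng list 195 sites in 77, and the 20 ng list 190 sites in 71. The name families also catch genes with no part in mitosis, such as cdc42bpb, a kinase that acts with the small GTPase Cdc42, and cdc5l and cdc40, which belong to the splicing machinery. The genes just named are given at the end of the results by role. Others with roles outside mitosis, such as cdk13 and nek1, stand under the role of their name family and count in its median.

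RNA bisulfite sequencing was run on polyadenylated RNA of wild-type embryos at stage 0. Bisulfite changes unmethylated cytosines so that they are read as T, while m5C is still read as C, and the m5C level of a site was the percentage of its reads that kept the C. By their labels the libraries were 2 from 100 ng of RNA and 1 each from 5, 10 and 20 ng, all from pooled embryos of 1 kind with no other treatment. The 2 libraries of 100 ng were deposited as 1 list of sites, so no input had a replicate spread, and each test compared the reads of 2 lists and not RNA inputs. The protocol text, which is the same for every library, gives a converted amount that conflicts with the lower labelled inputs, so an input here is the labelled amount. Of 21 gene symbols of maternal egg transcripts used as markers, 12 or 13 had a site in each list, among them velo1, vegt, nanos1 and zp2. Others, such as zar1 and zp3, had a site in no list. Of 8 follicle cell markers, 0 had a site in any list. Over all named protein-coding genes of X. tropicalis 35.3% had a site at 100 ng. A transcript without a site can still be present, so these counts do not show which cells the RNA came from.

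An egg enters development with a store of maternal mRNA, and the first divisions of a frog embryo run from that store without transcription. Cyclins switch on CDKs to drive entry into mitosis, the Wee1 and Myt1 kinases and the Cdc25 phosphatases set the inhibitory phosphates on CDK1, and the anaphase-promoting complex (APC/C) ends mitosis by marking cyclin B and securin for destruction, after which separase cuts cohesin. In mRNA, m5C is laid down mainly by NSUN2, and at a smaller set of sites with a characteristic sequence by NSUN6.

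In the 100 ng list the cell cycle sites had a median m5C level of 19.8%, with quartiles of 13.7% and 39.4%, beside 20.9% over all sites. Of the 254 sites, 128 (50.4%) were under 20%, 47 (18.5%) were at 50% or more and 13 (5.12%) at 80% or more. Over all sites these shares were 47.3%, 16.2% and 4.87%. The number of reads behind a site (its coverage) ranged from 31 to 37046 with a median of 412, beside a median of 183 over all sites. Coverage of a site reflects how much of the transcript the RNA held as well as capture and mapping, which cannot be told apart here. The exact Clopper-Pearson 95% interval of a level was 8.52 percentage points wide at the median site of the 100 ng list, and between 11.7 and 12.5 points wide at the median site of the lower lists. Reads were not counted by molecular identifier, so these intervals and all others below cover counting error only.

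Sites were spread over many transcripts. At 100 ng a gene of the group had a mean of 2.76 sites and at most 11, and 33 of 92 genes (35.9%) had a single site. Over all 6394 genes the mean was 2.90, the maximum 28 and the share with 1 site 34.8%. Of 149 protein-coding genes that the same name rule takes in the RefSeq gene table for X. tropicalis, 94 (63.1%) had a site in any list, beside 5840 of 15628 (37.4%) over all named protein-coding genes. Genes of the families with no listed site included wee1, knl1, mad1l1, spc24, cdc26, anapc11, smc5, stag2, ccnd1 and cdk6. A gene could be without a site because its transcript had too few reads or too low a level, and the lists do not separate these. These shares were matched by symbol alone, so a gene that the lists hold under another name also counts as without a site.

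**Figure D1:**
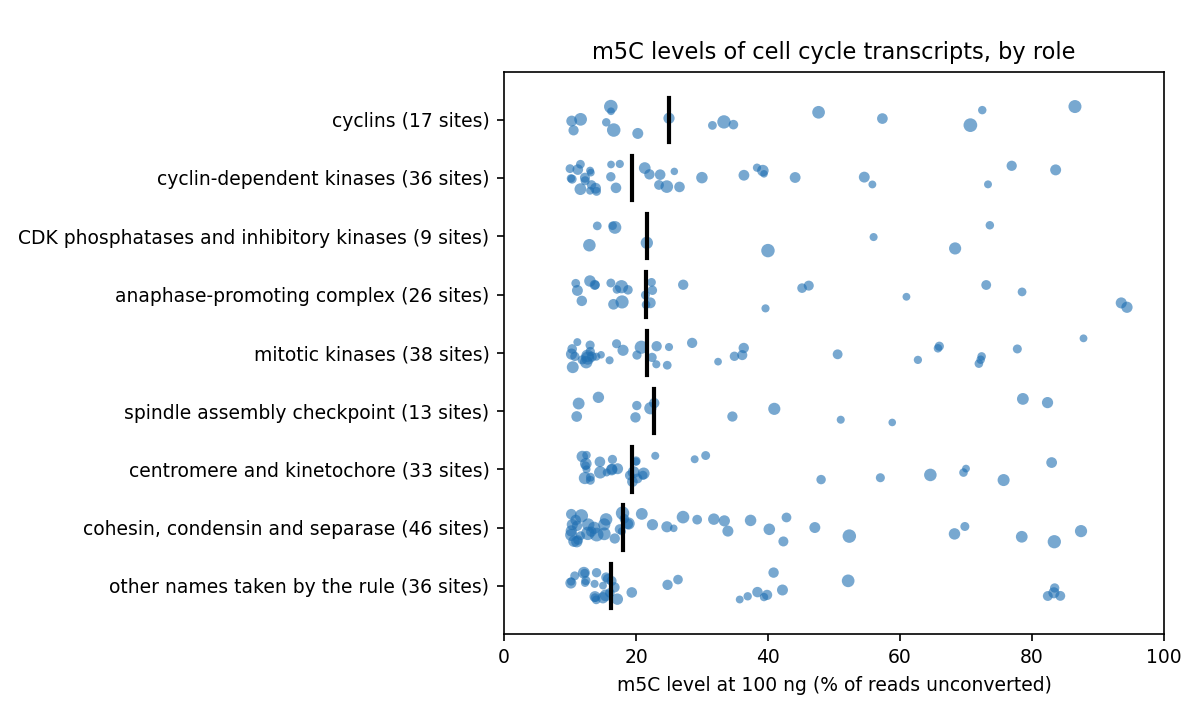
m5C level at 100 ng (x axis, percent of reads unconverted) of each of the 254 cell cycle sites, grouped by the role of the gene (rows). Each point is a site, larger points have more reads, the vertical position within a row is random, and black bars are medians. Medians lie between 16.2% and 25.0% in every role, and every role has sites above 50%.

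The bases at a site were known for 24 of the 254 sites, from the study's supplementary list of positions that could be compared between X. tropicalis and Xenopus laevis, which is a selected part of all sites. A choice of them is shown because it holds the 2 highest sites of the group, in cdc27 and cdc20, and the ccnb2 site described below. The sites left out ran from 10.1% in cdc5l to 40.8% in cdc42bpg. Among them was cdk7 at 13.2% with the bases Caagg, so the choice does not show how bases relate to level. Each is written as the site and the 4 bases after it, with the methylated C in capitals and T for U.

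cdc27, 94.4%: Cagag
cdc20, upstream site, 93.5%: Caagg
cenpm, 83.0%: Cagga
cdc25a, 68.4%: Ctcca
espl1, position 144306237, 68.3%: Cagag
bub1, 58.8%: Ctcca
pkmyt1, 56%: Caagg
espl1, position 144300905, 47.1%: Caggt
cdk17, position 40988800, 39.4%: Ctcca
cdk2, 36.4%: Cgggc
ccnb2, 33.3%: Ccaat
cdc20, downstream site, 17.8%: Ctcca
cdc27, downstream site, 16.6%: Ctcca
cdk17, position 40962534, 13%: Ctcca
ncapd2, 11.7%: Cgagg
cdk17, position 40954448, 10.3%: Ctgca

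The levels beside the names are those at 100 ng. The motif CTCNA, searched on the strand of the transcript with the C of the site as its first letter, was found at 7 of the 24 sites (29.2%), beside 249 of 1223 sites (20.4%) over the whole supplementary list. The study defines its second class of sites, which it assigns to NSUN6, by this motif. Among the 24 sites the median level at 100 ng was 17.8% with CTCNA and 33.3% without. With only 7 CTCNA sites from a selected list, these medians do not show how motif and level relate over all sites. The 20.4% is likewise a share of the supplementary list and not of all 100 ng sites. The study compared the levels of its 2 classes over far more sites, which was not repeated here. Both kinds stood in a single transcript in cdc20, cdc27 and cdk17. In cdc20 and cdc27 the CTCNA site was the lower of the 2 sites with known bases. A further site in each, at 17.9% in cdc20 and 13.8% in cdc27, had no known bases. In cdk17 the CTCNA site at 40988800 (22.9 to 57.9%, 33 reads) was above the site without the motif (5.6 to 17.0%, 126 reads). The second cdk17 CTCNA site (4.9 to 26.3%, 46 reads) could not be ordered against the latter, since their intervals overlap. In cdc25a the order could not be read, because its CTCNA site at 68.4% was the only one of its 3 sites with known bases.

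Cyclins were the role with the highest median level, 25.0% over 17 sites in 9 genes, and had deeply covered sites with a median of 962 reads. The B-type cyclins, which partner CDK1 in mitosis, held the highest and the deepest sites of the cyclins taken here, which leave out ccna1. In ccnb1 (chromosome 1, minus strand) the site at position 173654928 had 11055 of 12779 reads unconverted at 100 ng, a level of 86.5% (85.9 to 87.1), and 86.0%, 85.4% and 87.3% at 5, 10 and 20 ng. The other ccnb1 site, 621 positions upstream at 173655549, had 16.6% (16.2 to 17.1) over 25221 reads, and 15.1%, 15.6% and 16.1% in the lower lists. The 2 sites thus differed widely within this transcript in every list. The second cyclin B1 gene, ccnb1.2 (chromosome 4, position 83541532), had a single site with 4395 of 27158 reads unconverted at 100 ng, a level of 16.2%, and 15.8%, 16.4% and 17.3% at 5, 10 and 20 ng. Reads of the 2 cyclin B1 genes could be shared where their sequences are alike, which was not tested.

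Cyclin B2, ccnb2 (chromosome 3, plus strand), also paired a high with a lower site. At position 89281950 the level was 70.7% at 100 ng, from 24070 of 34063 reads, and 70.3%, 69.8% and 70.2% at 5, 10 and 20 ng. At position 89282338 it was 33.3% at 100 ng, from 6934 of 20807 reads, and 30.9% (1965 of 6362 reads), 31.0% (1547 of 4991) and 30.3% (1667 of 5509) at 5, 10 and 20 ng. The latter was the only cell cycle site that passed the test of a difference between lists, which is described below. In ccne1, the cyclin E1 that partners CDK2, the site at 23251525 on chromosome 4 had 47.7%, 46.4%, 46.4% and 46.1% at 100, 5, 10 and 20 ng, and the others 20.3% and 25.0% at 100 ng. The cyclin A2 transcript ccna2 had a single site, at 11.6% over 8598 reads at 100 ng, 11.4% at 10 ng and 10.2% at 20 ng, and was not listed at 5 ng. The cyclin I family member ccni2 had the most sites of the cyclins, 5 at 100 ng with levels between 10.3% and 57.3%. The site of ccnb3 was at 72.5% with 69 reads.

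**Figure D2:**
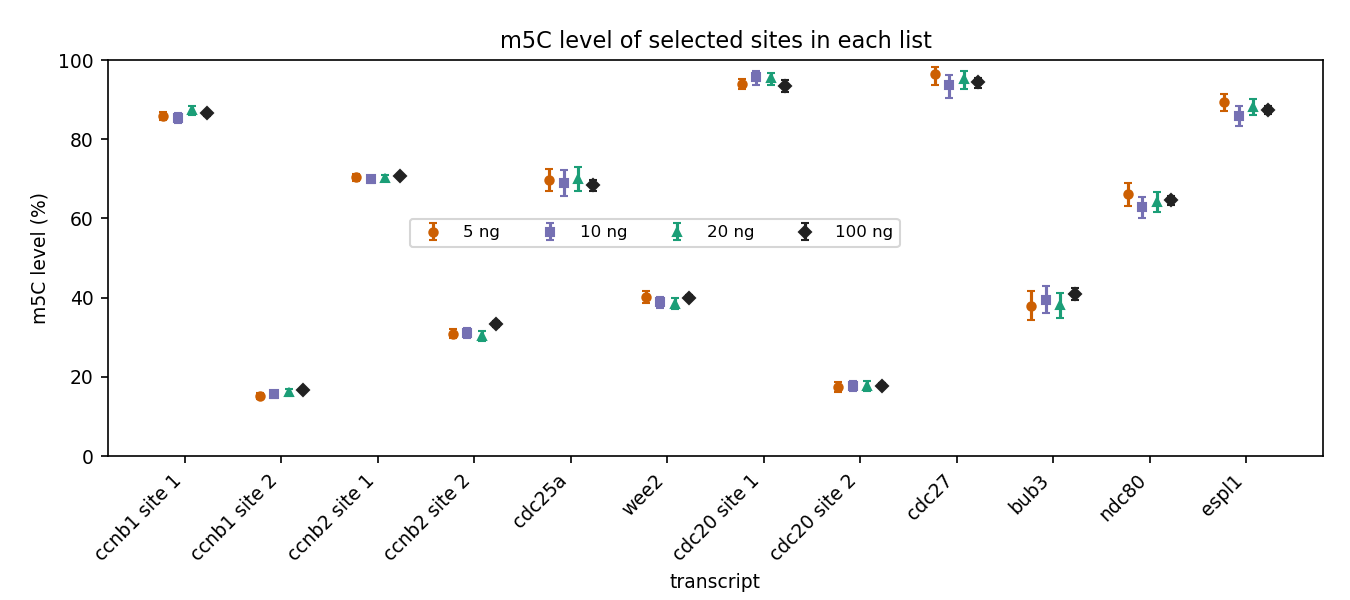
m5C level (y axis, percent) of 12 sites of the division machinery in each of the 4 lists. Symbols are the 5, 10, 20 and 100 ng lists, bars are exact 95% counting intervals, and where a gene has 2 sites site 1 is the higher and site 2 the lower (in cdc20 the lowest of 3). The levels run from about 15% to above 90% and the 4 lists lie close together at each site, with the 100 ng value of ccnb2 site 2 (33.3%) above the lower inputs (30.3% to 31.0%).

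The 12 CDK genes of the group had 36 sites at 100 ng with a median of 19.4%. Each of the 12 had a site at 100 ng, but a gene entered the group only with a site in some list. Over all genes so listed, 6394 of 6783 had a site at 100 ng. The main cdk1 site (chromosome 7, position 8479844) had 24.7% over 7435 reads at 100 ng and 23.9%, 26.1% and 24.7% at 5, 10 and 20 ng. The cdk2 sites were at 21.3%, 23.5% and 36.4% at 100 ng, and the 4 sites of cdk4 between 12.3% and 39.2%. The transcript with the most sites was cdk13, whose protein works with cyclin K on RNA polymerase II and not in mitotic entry. It had 11 sites at 100 ng and 13 over all lists. Its site at position 81802680 (chromosome 6, plus strand) was at 83.6% (784 of 938 reads) at 100 ng and at 81.1%, 84.8% and 83.7% at 5, 10 and 20 ng. Downstream by 65 positions a site had 23.7% at 100 ng and 12%, 20.5% and 22.4% at 5, 10 and 20 ng, and 14 positions further another had 76.9% at 100 ng and 75.0%, 74.3% and 71.0% in the lower lists. The order of these neighbours by level was the same in every list. The related kinase cdk12 had 6 sites at 100 ng, with 31 to 173 reads, and 5 of them were in no other list.

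The balance of CDK1 phosphorylation was represented by cdc25a, cdc25b, cdc25c, wee2 and pkmyt1, with 9 sites at 100 ng. In cdc25a, a phosphatase that activates CDKs, the site at 5121652 on chromosome 6 had 68.4% (66.9 to 69.8) over 4079 reads at 100 ng and 69.8%, 69.1% and 70.0% at 5, 10 and 20 ng. Its other sites had 16.8% and 12.9% at 100 ng over 9198 and 6663 reads. In wee2, a Wee1-type kinase that holds CDK1 inactive, the deeper site had 9359 of 23401 reads unconverted at 100 ng, a level of 40.0%, and 40.1%, 38.8% and 38.5% at 5, 10 and 20 ng. The other inhibitory kinase, pkmyt1, had 2 sites at 100 ng at 73.6% (61.9 to 83.3) and 56% (41.3 to 70.0). Only 72 and 50 reads covered these, and neither site was in a lower list. The 20 ng list held 1 pkmyt1 site, at 21.7% over 23 reads.

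The APC/C held the highest levels of the whole group. The cdc27 subunit had a site at position 7036491 of chromosome 10 with 1245 of 1319 reads unconverted at 100 ng, a level of 94.4% (93.0 to 95.6), and 96.4%, 93.8% and 95.3% at 5, 10 and 20 ng. The co-activator cdc20, which carries substrates to the complex and is the target of the spindle checkpoint, followed with 996 of 1065 reads at position 75093301 of chromosome 4 (93.5%, 91.9 to 94.9). The lower lists gave 94.0%, 95.7% and 95.4% at that site. The other 2 cdc20 sites, which lie 1732 positions or more downstream, had 17.9% and 17.8% at 100 ng over 15765 and 17394 reads. At the second of these, position 75091569, the lower lists gave 17.5%, 17.7% and 17.6%. Coverage was uneven along this transcript, since the upstream site had 1193 reads at 5 ng against 1065 at 100 ng, a ratio of 1.12, while the downstream site at 75091569 had a ratio of 0.197. None of the cdc20 sites passed the test of a difference between lists, and the smallest adjusted p was 0.0935 by Fisher's exact test, at position 75091459 at 5 ng (15.4% against 17.9%).

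Other subunits of the APC/C had fewer reads. The anapc7 site had 73.1% at 100 ng (198 of 271 reads) and 68.6%, 57.4% and 69.2% at 5, 10 and 20 ng over 51, 54 and 65 reads. The single anapc4 site had 78.5% over 93 reads. The scaffold subunit anapc1 had the most sites of the complex over all lists, 7, of which 4 were at 100 ng with levels from 11.8% to 45.2%. The anapc10 transcript had sites 2 positions apart, at 22.2% and 11.1% over 880 and 881 reads. The 11 APC/C genes together had 26 sites with a median of 21.5%.

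Mitotic kinases and the passenger protein survivin (birc5.1 and birc5.2) gave 38 sites in 14 genes at 100 ng, with a median of 21.6% and 9 sites at 50% or more. The deepest sites of the aurora kinases, aurka and aurkb, were at low levels with many reads. The main aurka site had 12.7% over 14276 reads at 100 ng, with 12.4%, 12.5% and 12.3% at 5, 10 and 20 ng. In aurkb, the kinase of the chromosomal passenger complex, the deepest site had 20.8% over 16856 reads and 22.6%, 21.8% and 21.0% in the lower lists. A pair of aurkb sites 10 positions apart had 12.5% and 12.7%. The 9 sites at 50% or more had between 41 and 273 reads. A nek6 site had 87.8% (73.8 to 95.9) over 41 reads, and it was in the 100 ng list only. The nek3 site at 147221966 had 77.8% over 117 reads at 100 ng and 74.1%, 65.4% and 70.8% over 27, 26 and 24 reads at 5, 10 and 20 ng. The genes of this role with the highest counts were nek1, a kinase tied to cilia and DNA repair, and plk3, each with 6 sites at 100 ng. The centriole kinase plk4 had a site at 50.5% over 273 reads.

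The spindle assembly checkpoint delays anaphase until kinetochores are attached. The 6 genes placed under this role by name had 13 sites at 100 ng and a median of 22.8%. The highest were in mad2l1bp, whose product takes Mad2 off its partners and so silences the checkpoint. Position 86782 of chromosome 5 had 82.4% (1050 of 1275 reads) at 100 ng and 83.9%, 84.3% and 80.6% at 5, 10 and 20 ng. Position 88829 had 78.6% (2048 of 2605 reads) and 77.6%, 76.5% and 77.7%, while 2 further sites between them were at 11.3% and 22.2% at 100 ng. In bub3, a scaffold of the checkpoint, the stronger site had 41.0% over 4046 reads at 100 ng and 37.9%, 39.4% and 38.0% in the lower lists. The Mad2 gene mad2l1 itself had 1 site, at 22.8% over 448 reads. The bub1 kinase had sites at 58.8% and 51.0% that rested on 34 and 49 reads and were in the 100 ng list only.

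Centromere and kinetochore genes had 33 sites in 12 genes at 100 ng and a median of 19.5%. The highest counts were in cenpe, the kinetochore motor, and in cenpo, with 5 sites each. The cenpe site at 64076692 on chromosome 1 had 75.7% (2657 of 3510 reads) at 100 ng and 74.3%, 75.9% and 77.3% at 5, 10 and 20 ng, and the site at 64071096 had 57.0% over 121 reads. In ndc80, a subunit of the complex that grips microtubules, 1 of 4 sites stood apart, with 64.6% over 6808 reads at 100 ng and 66.1%, 62.8% and 64.2% in the lower lists. The other 3 ndc80 sites were between 12.4% and 17.2%. Its partners nuf2 and spc25 had no site above 21.2% at 100 ng. The cenpm site at 105746723 of chromosome 4 had 83.0% over 746 reads at 100 ng and 87.5%, 89.3% and 87.6% at 5, 10 and 20 ng. The histone variant gene cenpa was not in the 100 ng list, and its single site had 11.7% and 13.2% at 5 and 10 ng.

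**Figure D3:**
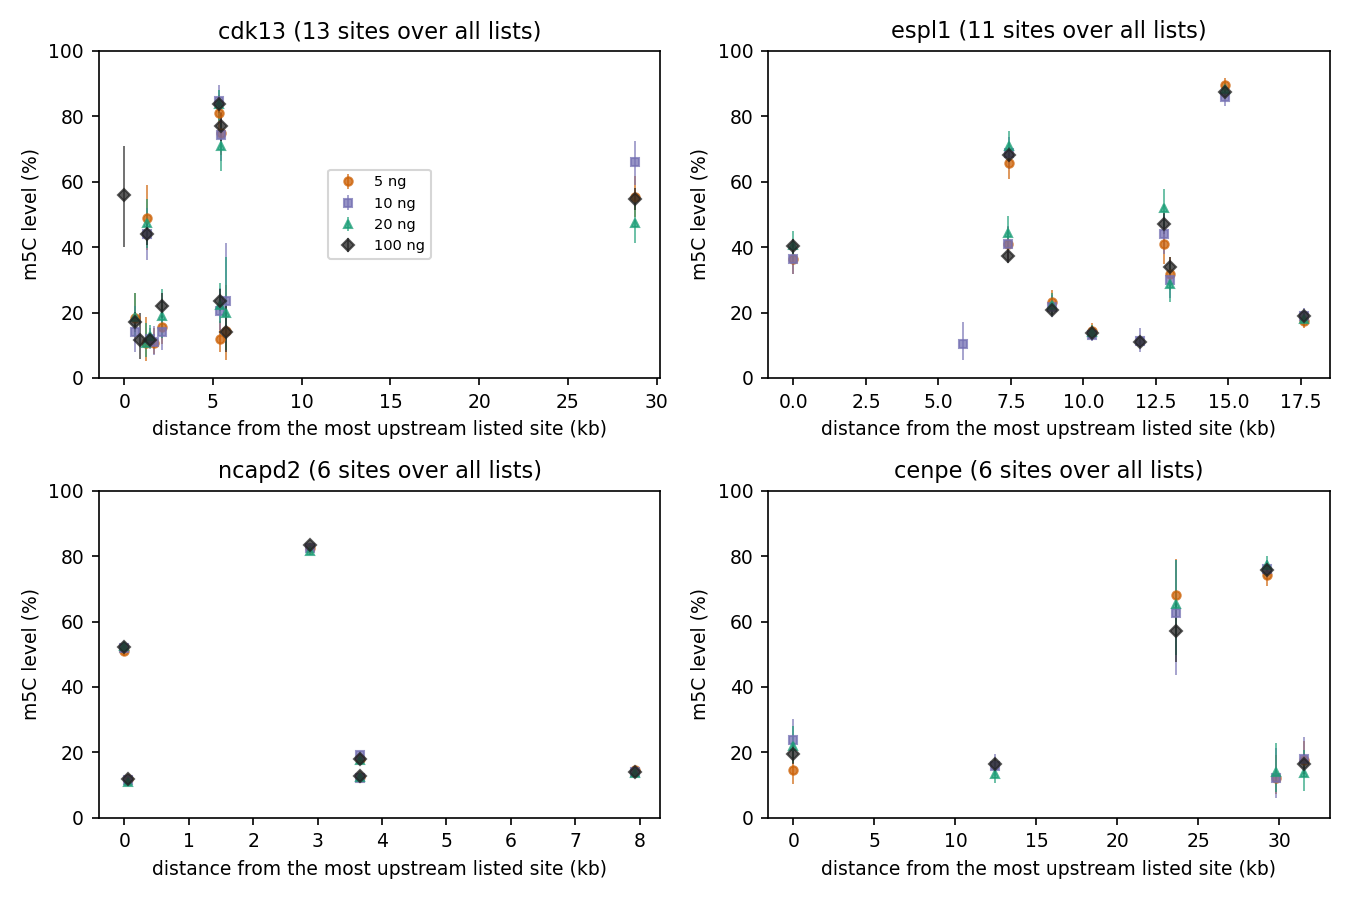
m5C level (y axis, percent) against distance along the gene from its most upstream listed site (x axis, kilobases of genome, introns included) for cdk13, espl1, ncapd2 and cenpe. Symbols are the 4 lists and bars are exact 95% counting intervals. Sites of very different level stand next to each other in each gene, as in ncapd2, where 83.4% at 100 ng lies among sites of 11.7% to 18.0% and 1 of 52.3%.

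Cohesin, condensin and separase gave the most sites of any role, 46 in 11 genes at 100 ng, at the highest coverage of the roles with over 10 sites (median of 1386.5 reads) and a median level of 18.1%. Separase, espl1 (chromosome 2, minus strand), had 10 sites. Its highest, at 144298808, had 3769 of 4311 reads unconverted at 100 ng, a level of 87.4% (86.4 to 88.4), and 89.4%, 85.9% and 88.2% at 5, 10 and 20 ng. Positions 144306237 and 144306262, 25 apart, had 68.3% and 37.4% at 100 ng, and the rest of the gene ran from 11.0% to 47.1%. The condensin I subunit ncapd2 (chromosome 7, plus strand) had the deepest site of the group, at position 1674324 with 37046 reads and a level of 14.0% at 100 ng, and 14.6%, 14.0% and 13.8% at 5, 10 and 20 ng. At position 1669281 it had 15196 of 18225 reads unconverted, 83.4% (82.8 to 83.9), and 82.5%, 82.6% and 81.5% in the lower lists. At position 1666398 it had 52.3% over 24568 reads, and 51.0%, 51.8% and 52.5%.

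The cohesin and condensin partners differed among themselves. In stag1 a single site, at 128398956 on chromosome 5, reached 78.4% over 2371 reads at 100 ng (80.4%, 79.4% and 76.4% at 5, 10 and 20 ng), and the other 4 in that gene lay between 10.6% and 29.3%. A second gene identifier with the symbol stag1, on chromosome 8, had 1 site in the 5 and 10 ng lists. The cohesin core gene smc3 had 6 sites between 12.8% and 33.4%, and the condensin gene ncapg had 7 between 10.4% and 42.3%. The condensin ATPases smc2 and smc4 were at 15.5% or less at 100 ng over 1295 to 6043 reads. In smc6, of the SMC5/6 complex, a site had 69.8% over 116 reads.

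Sites next to each other on the same strand were found in ncapd2 (12.7% and 18.0% over 22186 and 22404 reads), ncapg (42.3% and 17.5% over 326 and 325 reads) and smc3 (33.4% and 22.5% over 1231 and 1227 reads). Neighbouring cytosines thus differed by 5.26, 24.8 and 10.9 points. In all, 47 of the 254 sites (18.5%) lay within 100 positions of another site of the same gene, beside 22.0% of all sites. In the 39 genes with 3 or more sites, the highest and lowest site of a gene were 47.4 points apart at the median, beside 39.9 points in 2686 genes over the whole list. Distances are along the genome and take in introns.

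Among the other names that the rule takes, placed in none of the roles above, 12 genes had 36 sites at 100 ng with a median of 16.2%. The Cdc42 effector kinase cdc42bpb had 9 sites, from 13.8% to 39.9%, and cdc42bpg had 7, from 10.7% to 40.8%. The splicing genes cdc5l and cdc40 had single high sites, at 83.3% over 1079 reads and 82.4% over 284. The Hsp90 partner cdc37l1 had 84.3% over 280 reads, and cdc34, a ubiquitin-conjugating enzyme, 52.1% over 8206 reads (53.6%, 54.1% and 54.1% at 5, 10 and 20 ng).

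The study set lower inputs beside 100 ng, and a like question was asked for the cell cycle sites. The study took sites that reached a level of 10% in either sample. Here a site had to stand in each list compared, so it had reached 10% in each. Sites missing from a list could not be compared, and the agreement below holds only for sites listed in each. Over the 120 sites that had 50 reads or more in all 4 lists the median level was 22.9% at 100 ng and 23.4%, 24.0% and 22.1% at 5, 10 and 20 ng, beside values from 25.1% to 25.6% in the 4 lists over all 6162 such sites. The range of a site's level over the 4 lists had a median of 4.36 points, beside 5.96 points over all sites. With at least 100 reads in all 4 lists these medians were 3.12 and 4.77 points, and with at least 20 reads 5.03 and 7.51. The range thus fell with coverage, and cell cycle sites had more reads than the rest. The part of coverage in the lower range of cell cycle sites was not tested. At 5 ng, 136 sites had at least 50 reads in both lists, and the level minus that at 100 ng had a mean of -0.40 points (95% counting interval -0.98 to 0.17). At 10 ng this mean was 0.23 points (-0.32 to 0.79) over 145 sites, and at 20 ng -0.18 points (-0.74 to 0.38) over 142 sites. Each of these intervals includes 0. With a minimum of 20 reads in both lists the 5 ng mean turned to 0.20 points (-0.53 to 0.92), and the 10 ng mean rose to 1.07 points with an interval of 0.37 to 1.77 that leaves 0 out. Of the sites, 128 (94.1%), 140 (96.6%) and 137 (96.5%) were within 10 points of 100 ng, beside 93.9%, 94.3% and 95.0% over all sites.

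Fisher's exact test per site, two-sided, with Benjamini-Hochberg adjustment over all sites compared, called 0 of the 136 cell cycle sites at 5 ng, 0 of 145 at 10 ng and 1 of 142 at 20 ng. The background was 0.278% of 7923 sites, 0.0406% of 7385 and 0.15% of 8018. At an unadjusted p under 0.05 the same exact test passed 18, 15 and 12 sites (13.2%, 10.3% and 8.45%), beside 8.75%, 8.61% and 7.4% of all sites. Cell cycle sites had more reads than the rest, with medians of 172, 171 and 174 at 5, 10 and 20 ng beside 80, 80 and 83, and the part of coverage in these shares was not tested. The site called was that of ccnb2 at 89282338, lower at 20 ng (30.3%, 29.0 to 31.5) than at 100 ng (33.3%, 32.7 to 34.0), with an adjusted p of 0.0150 by Fisher's exact test. Its adjusted p was 0.0793 at 5 ng and 0.192 at 10 ng by the same exact test, and these comparisons share the 100 ng list. The counting variance was then multiplied by 1.42, the factor by which lower lists differed from each other beyond counting. This factor came from sites of all genes at levels of at least 30%, without the 100 ng list. Over the cell cycle sites among them it was 1.29. With the factor of 1.42 a normal test called 0 cell cycle sites in each comparison. By that normal test the ccnb2 site had an adjusted p of 0.295 at 20 ng.

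**Figure D4:**
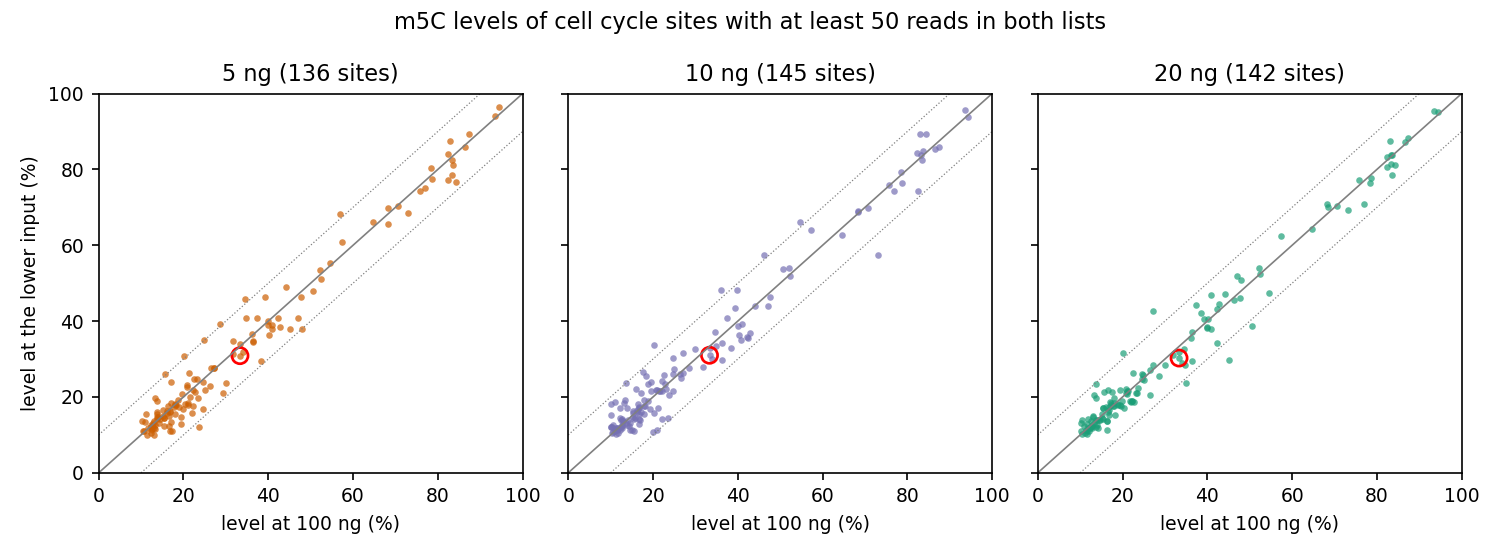
m5C level at each lower input (y axis, percent) against the level at 100 ng (x axis, percent) for cell cycle sites with at least 50 reads in both lists. Each point is a site, the solid line marks equal levels, dotted lines 10 points to each side, and the red circle the ccnb2 site called at 20 ng. Between 94.1% and 96.6% of the points lie within the dotted lines.

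The lower lists held fewer cell cycle sites than the 100 ng list, which combines 2 libraries. At shared cell cycle sites the reads were a median of 0.256, 0.226 and 0.265 of those at 100 ng for 5, 10 and 20 ng. Input, depth and the combining of libraries cannot be told apart here. Of the 254 cell cycle sites at 100 ng, 165 (65.0%, 58.7 to 70.8) were also listed at 5 ng, 176 (69.3%, 63.2 to 74.9) at 10 ng and 174 (68.5%, 62.4 to 74.2) at 20 ng, beside 60.2%, 56.9% and 61.3% of all sites. The shares moved with coverage. Among 25 sites with 20 to 50 reads at 100 ng, 2, 0 and 1 were listed at 5, 10 and 20 ng, where 0 of 25 allows a share of up to 13.7%. Among 81 sites with 1000 reads or more, 69, 80 and 75 were listed (85.2%, 98.8% and 92.6%), beside 92.3%, 93.7% and 93.9% of all sites of that depth. The 12 deep sites missing at 5 ng had levels from 10.1% to 16.3% at 100 ng. The 1 missing at 10 ng had 10.4% and the 6 missing at 20 ng had 10.2% to 15%. Every listed site reached 10%, and the level of a site in a list without it is unknown. Why these deep sites were missing was not tested. Where a site had 1000 reads or more and also reached 20% at 100 ng, it was in every lower list in 38 of 38 cases, and in 1332 of 1332 over all genes.

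**Figure D5:**
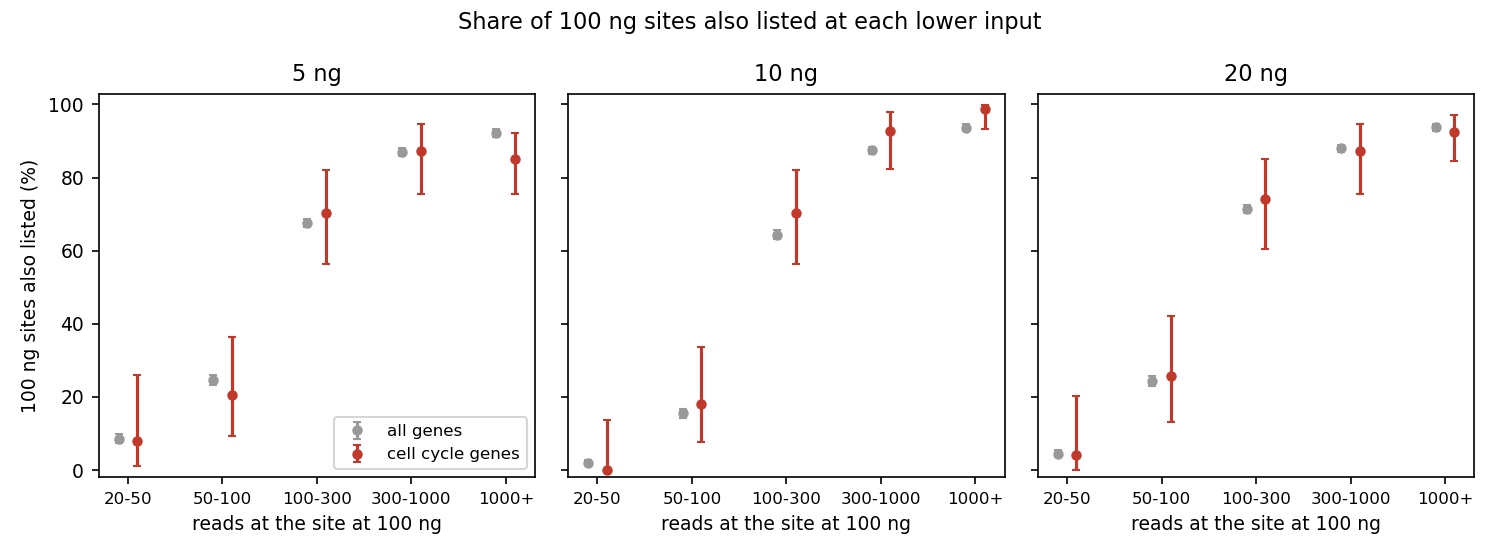
Share of 100 ng sites that were also listed at each lower input (y axis, percent), by the number of reads at the site at 100 ng (x axis). Red points are cell cycle genes and grey points all genes, with exact 95% intervals. In cell cycle genes the share rises from 8% or less at 20 to 50 reads to 85.2% or more at 1000 reads and over, and in all genes from 8.57% or less to 92.3% or more.

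In all, 140 of the 299 cell cycle sites (46.8%) were held by every list, beside a background of 37.3% of all 23009 sites, and 53 (17.7%) were at 100 ng only, beside 22.0%. By gene, 60 of 98 (61.2%) had a site in every list, beside 59.2% over all genes. Genes with sites at 100 ng only were 12 of 98 (12.2%), beside 17.1% over all genes. They were bub1, ccnd2, cdc25c, cdc37, cdc42, cdk11b, cdk5r2, cdk7, cenpk, ncapg2, nek6 and nek8. Absent from the 100 ng list were 6 of the 98 genes, beside 389 of 6783 over all genes. The 6 were ccne2, ccnl2, cdc42se2-like.2, cdk2ap2, cenpa and smc1a. There were 4 sites (1.34% of 299) that every lower list held and the 100 ng list did not, in cenpe, plk3, anapc1 and bub1b. Over all sites these were 183 of 23009 (0.795%). The plk3 site at 72719206 had 20.4% (32 of 157 reads), 19.3% (16 of 83) and 13.9% (16 of 115) at 5, 10 and 20 ng. The other plk3 sites had between 323 and 1170 reads at 100 ng. The cenpe site at 64077252 had 12.2%, 12.2% and 14.1%, the anapc1 site at 23807161 10.4%, 13.2% and 15.6%, and the bub1b site at 94013584 11.3%, 18.2% and 21.4%.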

How the data were processed

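RNA bisulfite sequencing of polyadenylated RNA from X. tropicalis stage 0 embryos gave 5 libraries. The submitters' processing notes name bcl2fastq (2.17). Per the study's methods the authors trimmed reads with cutadapt and Trimmomatic, mapped them to the in silico converted Xenbase genome (v9.1) with HISAT2 (2.10 in the submitters' processing notes) and then to the transcriptome with Bowtie2, and removed reads with many remaining cytosines and conversion-resistant genes, which can lower counts in dense clusters. The p-values of replicates were combined by Stouffer's method. The deposited lists give coverage as a count of reads, the m5C level as a fraction, and the p-value from site calling, which was not used. The lowest values listed were 20 reads and a level of 10%. Unconverted reads were level times coverage, whole to within 2.6e-05 reads. Positions are as in the authors' files, on v9.1. Whether they count from 0 or 1 is not given in the sources used here.

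Chromosome, position and strand identified a site across lists. Lists were compared with Fisher's exact test where both had 50 reads or more, adjusted over all such sites (threshold 0.05), in Python 3.11.15 with SciPy 1.17.1. The test was tested on simulated data. An alternative multiplied the counting variance by 1.42, estimated between the lower lists at levels of at least 30%. Other alternatives were read minimums of 20 and 100, a level of at least 20%, a difference of at least 10 points and other member lists. Named items were the genes with the most sites (15 with ties), the 10 highest sites among those of 50 reads or more in all lists, the 5 deepest sites, sites called, the gene with the most sites in each role and the 5 genes with the most sites within 100 positions of another. Other genes of each role were named after their values were seen. Members and lists were chosen with earlier results of these data known. Gene names come from the files, and 96 of 98 matched the RefSeq gene table (UCB_Xtro_10.0), from which only names were taken.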

Additional observations from a re-analysis of the deposited data

How the results depend on the processing

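The deposited values limit the results more than the settings did: no replicate spread, no unlisted levels and single libraries at the lower inputs. No paired analysis was possible because the values of both 100 ng libraries come combined and the lower inputs had 1 library each, and for the same reason no library could be left out. Keeping sites of at least 20% left 98, 102, 106 and 126 sites at 5, 10, 20 and 100 ng. Over all sites of each own list the median level was 21.0% at 10 ng and 19.8% at 100 ng. Among 100 ng sites with at least 50 reads, 71.2%, 76.9% and 75.5% were listed at 5, 10 and 20 ng, and among those of at least 20% level, 76.2% at 5 ng and 77.8% at 20 ng. With at least 20 reads in both lists the mean difference was 0.20 points at 5 ng and 1.07 points at 10 ng (0.37 to 1.77), where both lists had to reach 10% to hold a site. The call at ccnb2 was lost with the variance factor (0 sites) and with a minimum difference of 10 points (0 sites). The other alternatives, among them putting back the 6 excluded genes and leaving out names that start with cdc42, left counts within 1.5 times and values within their intervals.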

Other observations

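Partners of these complexes that the name rule does not take were described from lists chosen with earlier results known, with no test. At 100 ng 8 of 13 cohesin partners had 22 sites with a median level of 17.6%, and 8 of 15 kinetochore partners had 20 sites with a median of 24.7%. The cohesin release factor wapl had 4 sites, the highest at 67.0%, while rad21, the subunit that separase cuts, had 1 site at 13.4% over 10718 reads. Shugoshin 2, sgo2, which guards centromeric cohesin, had 5 sites and a highest level of 42.9%. Among kinetochore partners ska1, of the complex that couples kinetochores to microtubules, had 6 sites up to 48.6%. Of 5 checkpoint and chromosomal passenger partners only ttk and tpx2 had a site at 100 ng, 8 in all with a median of 48.6%. The checkpoint kinase ttk had 4, with a median of 68.4% and a highest level of 88.7%, and the spindle factor tpx2 had 4 at a median of 12935.5 reads, with a highest level of 58.6%. The APC/C co-activator fzr1 had sites of up to 54.3%, and fbxo43, which holds the APC/C inactive in the egg, had 4 with a median of 16.5%. Of 8 genes of entry into mitosis, 4 had sites, among them mastl, the Greatwall kinase, with 1 at 11.8% over 1255 reads, and bora, a cofactor of Aurora A, with 2 at a median of 45.4%.

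Coverage relative to 100 ng was not even along some of the transcripts. Of 165 cell cycle sites listed at both 5 and 100 ng, 5 (3.03%) had at least as many reads at 5 ng as at 100 ng, beside 1.05% of 11154 sites over all genes. They were in cdk2, cdc73, cenpm, cdc20 and cenpl, with ratios between 1.02 and 1.26, while the median ratio was 0.256. At 10 and 20 ng 0 cell cycle sites reached a ratio of 1. The ratio at 5 ng was higher at the most upstream than at the most downstream shared site in 15 of 37 cell cycle genes (40.5%), beside 39.9% of 2622 genes overall. These sites were chosen after their values were seen.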
